A study of Mus musculus with 13 samples.

Results

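The nuclear factor I (NFI) family consists of 4 genes, Nfia, Nfib, Nfic and Nfix, which were chosen by name. All 4 were among the 24411 genes of the bulk table and among the 14601 and 14164 genes of the single-cell tables, and all 4 passed the filter on low bulk values that left 13233 genes. The cells came from skeletal muscle of wild-type C57BL/6 mice aged 2 months. The bulk groups were freshly sorted SMMC (smooth-muscle/mesenchymal-like cells, n = 3), SMMC harvested while proliferating after 3 days of culture (n = 3), SMMC cultured and then left to differentiate (n = 3), and freshly sorted MuSC (quiescent muscle stem cells, n = 2). Both sorts took CD31-, CD45-, Sca1- and ITGA7+ cells, of which SMMC were Vcam1- and MuSC Vcam1+. The MuSC group has no cultured counterpart here, so culture was compared within SMMC alone. The 2 single-cell libraries held unsorted mononuclear cells of uninjured muscle, captured in droplets.

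NFI proteins are transcription factors that bind DNA as homodimers or heterodimers. They share a conserved amino-terminal DNA-binding and dimerization domain, and their carboxy-terminal parts differ and activate or repress transcription. In mouse muscle Nfix is known for the switch from embryonic to fetal myogenesis and for the timing of regeneration by satellite cells. Nfia is known for the onset of gliogenesis in the spinal cord and for brown fat, Nfib for lung, brain and hair follicle stem cells, and Nfic for tooth root and bone formation.

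Nfia lies on the plus strand at chr4:97772734-98118874, Nfib on the minus strand at chr4:82290173-82705750, Nfic on the minus strand at chr10:81396186-81455635, and Nfix on the minus strand at chr8:84699876-84800344 (GENCODE M21, build GRCm38, which matches mm10). All 4 are protein-coding. To show how alike the members are, the 90-base stretch with the most bases shared by all 4 is given here from the longest complete coding sequence of each gene, with capitals for the 67 bases that are identical in all 4. It starts at coding base 55 of Nfia, 58 of Nfib, 124 of Nfic and 31 of Nfix.
Nfia: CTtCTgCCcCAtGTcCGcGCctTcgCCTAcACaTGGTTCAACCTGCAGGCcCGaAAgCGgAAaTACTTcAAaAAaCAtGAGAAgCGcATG
Nfib: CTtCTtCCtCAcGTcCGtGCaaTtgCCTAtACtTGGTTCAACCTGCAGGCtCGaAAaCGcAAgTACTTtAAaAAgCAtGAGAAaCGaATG
Nfic: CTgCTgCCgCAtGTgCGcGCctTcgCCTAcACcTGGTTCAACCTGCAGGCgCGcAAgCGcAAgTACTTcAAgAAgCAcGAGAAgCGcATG
Nfix: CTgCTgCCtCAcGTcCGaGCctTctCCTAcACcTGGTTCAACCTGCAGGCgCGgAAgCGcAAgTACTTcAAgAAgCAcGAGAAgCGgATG

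In this stretch Nfic and Nfix were the most alike pair, with 83 of 90 bases identical, and Nfib and Nfic the least alike, with 71. Despite this likeness, none of the 50-base words in the annotated transcripts of any member, between 6711 for Nfic and 15091 for Nfib, occurred in another member. On the opposite strand, exons of Nfia overlapped E130114P18Rik over 4 bases, exons of Nfic overlapped Gm16104 over 72 bases, and exons of Nfix overlapped Lyl1 over 4 bases and G430095P16Rik over 137 bases. The strand setting of the authors' counting is not stated in the labels, so reads from those overlaps cannot be told apart from the partner gene's. Nfib had no exonic overlap with another gene.

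Promoter windows are shown for the members with a RefSeq entry because Nfia and Nfix differed strongly between the groups while Nfic did not pass the test. Each runs from 250 bases before to 50 bases after an annotated start (RefSeq, GRCm38.p6), 5′ to 3′ on the gene's strand, with CG dinucleotides in capitals. The Nfia window lies at chr4:97581693-97581992 on the plus strand, and its RefSeq start is 191 kb upstream of the gene's start in GENCODE. The Nfix window, the most upstream of 4, lies at chr8:84780033-84780332 on the minus strand, and the Nfic window at chr10:81427124-81427423 on the minus strand. Their RefSeq starts are 20.3 kb (Nfix) and 28.5 kb (Nfic) inside the genes as GENCODE annotates them, so the windows are not those at the GENCODE starts.
Nfia: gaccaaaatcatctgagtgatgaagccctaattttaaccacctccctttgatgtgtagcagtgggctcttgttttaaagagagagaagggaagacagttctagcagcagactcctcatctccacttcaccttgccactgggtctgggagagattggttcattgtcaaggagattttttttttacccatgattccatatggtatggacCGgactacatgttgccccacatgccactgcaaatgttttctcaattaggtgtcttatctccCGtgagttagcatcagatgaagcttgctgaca
Nfix: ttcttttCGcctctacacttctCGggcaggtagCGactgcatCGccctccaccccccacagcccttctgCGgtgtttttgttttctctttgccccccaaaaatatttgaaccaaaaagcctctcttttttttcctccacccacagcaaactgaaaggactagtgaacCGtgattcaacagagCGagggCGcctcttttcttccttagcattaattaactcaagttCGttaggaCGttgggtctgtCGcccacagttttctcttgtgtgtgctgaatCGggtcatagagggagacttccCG
Nfic: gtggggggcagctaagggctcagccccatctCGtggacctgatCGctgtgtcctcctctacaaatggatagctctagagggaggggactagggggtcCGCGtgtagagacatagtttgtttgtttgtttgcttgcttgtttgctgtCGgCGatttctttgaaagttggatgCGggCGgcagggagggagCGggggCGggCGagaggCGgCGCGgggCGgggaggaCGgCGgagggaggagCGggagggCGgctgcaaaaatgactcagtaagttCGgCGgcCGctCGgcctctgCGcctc

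The Nfia window held 2 CG dinucleotides and 44.7% G or C, the Nfix window 13 and 49.3%, and the Nfic window 24 and 63.0%. Over all 32851 windows of this length the medians were 7 CG dinucleotides and 52.7% G or C. The NFI half-site, TTGGC on either strand, was in none of these 3 windows, 1 or 2 times in each of the other Nfix windows, and in 46.7% of all windows. The E-box CANNTG, a palindrome that bHLH factors such as MyoD can bind, occurred 5 times in the Nfia window, once in the Nfic window and not in the Nfix window, and 72.3% of all windows held at least 1. These matches describe letters only.

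The bulk values are FPKM, which divides the fragments of a gene by its length and by the size of its library. They keep no read count, so the depth of the bulk libraries is unknown. Genes were tested with limma on log2(FPKM + 1), two-sided, with Benjamini-Hochberg adjustment over all 13233 genes and a threshold of 0.05. A gene that passed is said to have risen or fallen. Fold differences written as such are ratios of group means in FPKM. The comparisons share libraries and so are not independent of each other. The labels do not say that the libraries of a group came from separate animals, so the spread behind each p-value may be technical. In bulk, fewer cells of a type and less RNA per cell cannot be told apart.

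Marker lists bear on what the sorted fractions held. The 7 muscle stem cell markers summed to between 374 and 601 FPKM in fresh SMMC and to between 2860 and 4415 FPKM in MuSC, and all 7 were at 1 FPKM or more on average in both groups. Of these, 6 fell in fresh SMMC and 1 rose (limma), namely Chodl, at 331 ± 74.5 FPKM in fresh SMMC (SD, n = 3) and 133 ± 9.54 FPKM in MuSC (SD, n = 2), so that Chodl made up most of the sum in fresh SMMC. Fresh SMMC carried tenocyte markers at 8773 to 17648 FPKM, fibro-adipogenic progenitor markers at 2801 to 4965, pericyte markers at 1274 to 3318, vascular smooth muscle markers at 1114 to 1696, Schwann cell markers at 309 to 508 and endothelial markers at 120 to 215. In MuSC these sums were 12.2 to 20.3, 707 to 832, 23.9 to 28.7, 53.7 to 105, 46.6 to 53.2 and 5.67 to 5.69 FPKM in the same order. No marker of these lists was at 0 in all libraries of either fresh group, and in fresh SMMC relative to MuSC 8 of 8 tenocyte, 9 of 11 tested fibro-adipogenic, 7 of 7 pericyte, 8 of 8 vascular smooth muscle, 7 of 8 Schwann and 7 of 7 tested endothelial markers rose (limma). Fresh SMMC also carried perineurial markers at 396 to 686 FPKM and erythroid markers at 332 to 885, against 15.3 to 20.5 and 6.84 to 13.2 in MuSC. Of these, 6 of 6 perineurial and 4 of 4 tested erythroid markers rose (limma). Over all tested genes, 41.7% rose and 18% fell in fresh SMMC relative to MuSC. The part of these cell types in the NFI levels was not tested. In proliferating SMMC the tenocyte, fibro-adipogenic, pericyte, Schwann and endothelial sums were each at or below 35.6 FPKM. The vascular smooth muscle sum was 565 to 803 FPKM there, most of it from Acta2. Relative to fresh SMMC, 7 of its 8 markers fell, in a comparison in which 35.4% of all tested genes fell. The muscle stem cell sum was 1530 to 1598 FPKM in proliferating SMMC, and the 5 cycling markers summed to 451 to 481 FPKM. In differentiating SMMC the 7 skeletal muscle fibre markers summed to 17444 to 21642 FPKM. The cultured libraries therefore differ from fresh SMMC in the markers of several cell types as well as in time and treatment.

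The first comparison asked how fresh SMMC differ from MuSC. Nfia, Nfib and Nfix fell in fresh SMMC relative to MuSC, and Nfic did not pass the test. The 3 that fell are 3 of 4 members, while 18% of all tested genes fell and 41.7% rose in this comparison.

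Nfia stood at 10.4, 11.1 and 10.6 FPKM in fresh SMMC, against 907 and 1368 FPKM in MuSC. Both MuSC libraries were far above every fresh SMMC library. The ratio of means was 106-fold lower in fresh SMMC, and the log2 change was -6.58 ± 0.26 (SE, limma adjusted p 4.94e-09). Only 10 of 13233 genes had a more negative log2 change. Within the libraries Nfia ranked between 33 and 60 among all genes in MuSC, where it is thus one of the most abundant transcripts, and between 4897 and 5349 in fresh SMMC.

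Nfib stood at 36.5, 45.8 and 44.6 FPKM in fresh SMMC, against 542 and 783 FPKM in MuSC. The groups did not overlap. Its mean was 15.7-fold lower in fresh SMMC, with a log2 change of -3.92 ± 0.29 (SE, limma adjusted p 3.32e-07).

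Nfix stood at 35.1, 34.3 and 22.5 FPKM in fresh SMMC, against 86.7 and 77.0 FPKM in MuSC. The third fresh library was the lowest, and no fresh library reached a MuSC library. Its mean was 2.67-fold lower, with a log2 change of -1.41 ± 0.22 (SE, limma adjusted p 1.54e-04). The 3 decreases were thus of different size, and the ratio of Nfia to Nfib, which needs no scaling between libraries, was 0.237 to 0.284 in fresh SMMC and 1.67 to 1.75 in MuSC.

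Nfic stood at 19.1, 23.8 and 21.3 FPKM in fresh SMMC, against 18.7 and 27.5 FPKM in MuSC. The groups overlapped, with 1 MuSC library below and the other above all fresh libraries. The log2 change of -0.09 ± 0.25 did not pass (SE, limma adjusted p 0.779), but it depended on scaling: with TMM rescaling it was -0.67 (adjusted p 0.0486), and without the second MuSC library it was 0.17. The median log2 change of all tested genes was 0.45 in this comparison, 0.07 with TMM rescaling and -0.04 with quantile normalization. Of the genes that passed, 69.8% were higher in fresh SMMC, against 52.5% with TMM and 48.1% with quantile normalization. Nfia, Nfib and Nfix passed with the same direction under each of the 3 scaling alternatives, which included leaving out the ribosomal RNA precursor gene Rn45s.

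**Figure D1:**
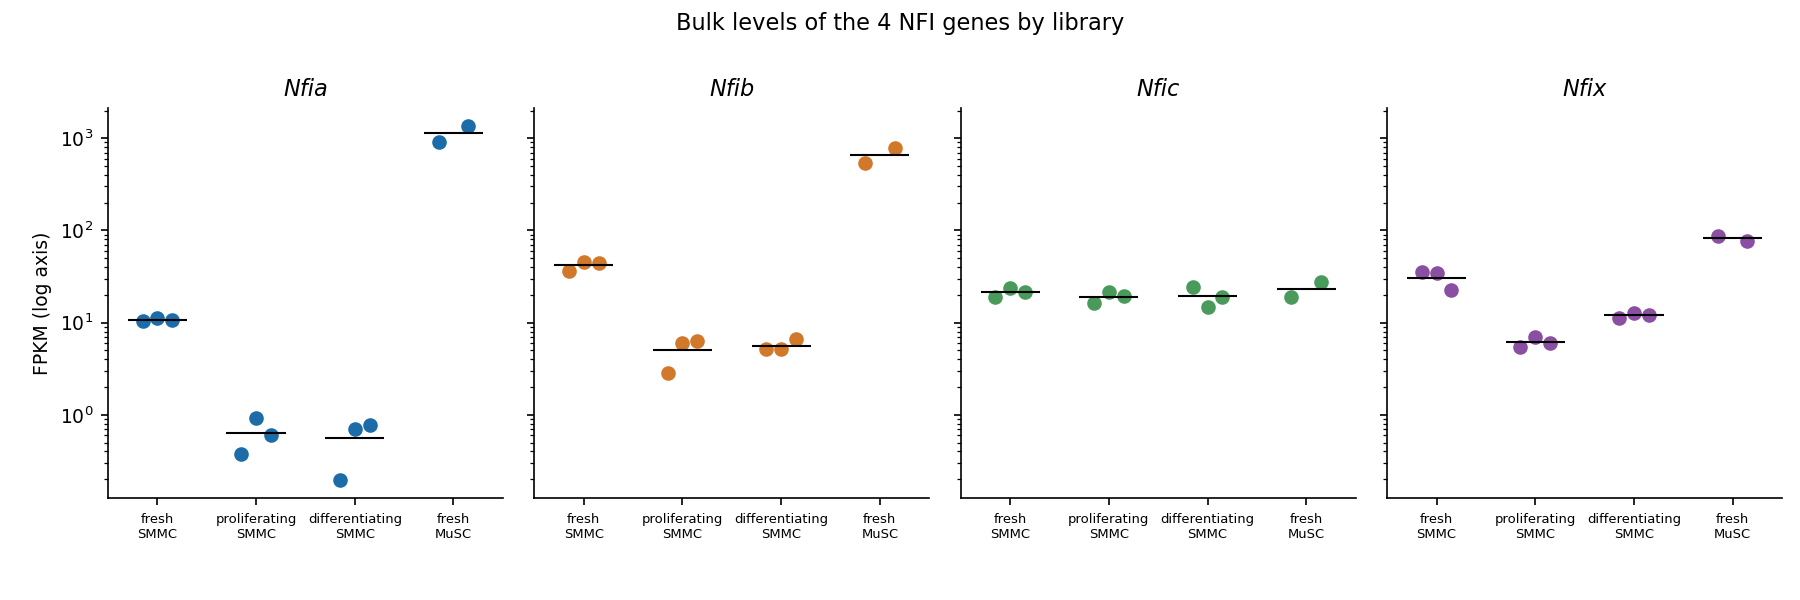
FPKM on a log axis of each NFI gene in every bulk library (points) with group means (black lines), for fresh, proliferating and differentiating SMMC and fresh MuSC. Nfia spans from under 1 FPKM in cultured SMMC to 907 FPKM and above in MuSC, while Nfic lies between 14.8 and 27.5 FPKM in all 11 libraries.

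The next comparison asked what 3 days of culture do to SMMC. Nfia, Nfib and Nfix fell in proliferating relative to fresh SMMC, where 35.4% of all tested genes fell and 33.1% rose, and Nfic again did not pass. The share of members that fell is above the background, but with 4 genes this is no more than a description.

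Nfia was 0.379, 0.932 and 0.602 FPKM in proliferating SMMC, against 10.4, 11.1 and 10.6 FPKM in fresh SMMC. All proliferating libraries were below 1 FPKM. The mean was 16.8-fold lower after culture, with a log2 change of -2.85 ± 0.23 on the log2(FPKM + 1) scale, which understates it at such low levels (SE, limma adjusted p 4.84e-07).

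Nfib was 2.81, 6.01 and 6.33 FPKM in proliferating SMMC, against 36.5, 45.8 and 44.6 FPKM in fresh SMMC. The first proliferating library was lower than the other two, and the groups did not overlap. The mean was 8.38-fold lower, with a log2 change of -2.89 ± 0.26 (SE, limma adjusted p 9.70e-07).

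Nfix was 5.45, 6.89 and 6.00 FPKM in proliferating SMMC, against 35.1, 34.3 and 22.5 FPKM in fresh SMMC. The groups did not overlap, and the mean was 5.01-fold lower. The log2 change was -2.13 ± 0.20 (SE, limma adjusted p 1.43e-06).

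Nfic was 16.3, 21.4 and 19.4 FPKM in proliferating SMMC, against 19.1, 23.8 and 21.3 FPKM in fresh SMMC. The groups overlapped, and the log2 change of -0.16 ± 0.22 did not pass (SE, limma adjusted p 0.533). With the other members lower, Nfic made up 60.0% to 65.4% of the summed NFI FPKM in proliferating SMMC and 18.9% to 21.5% in fresh SMMC. FPKM is scaled by length, so shares of a summed FPKM compare the members per length.

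**Figure D2:**
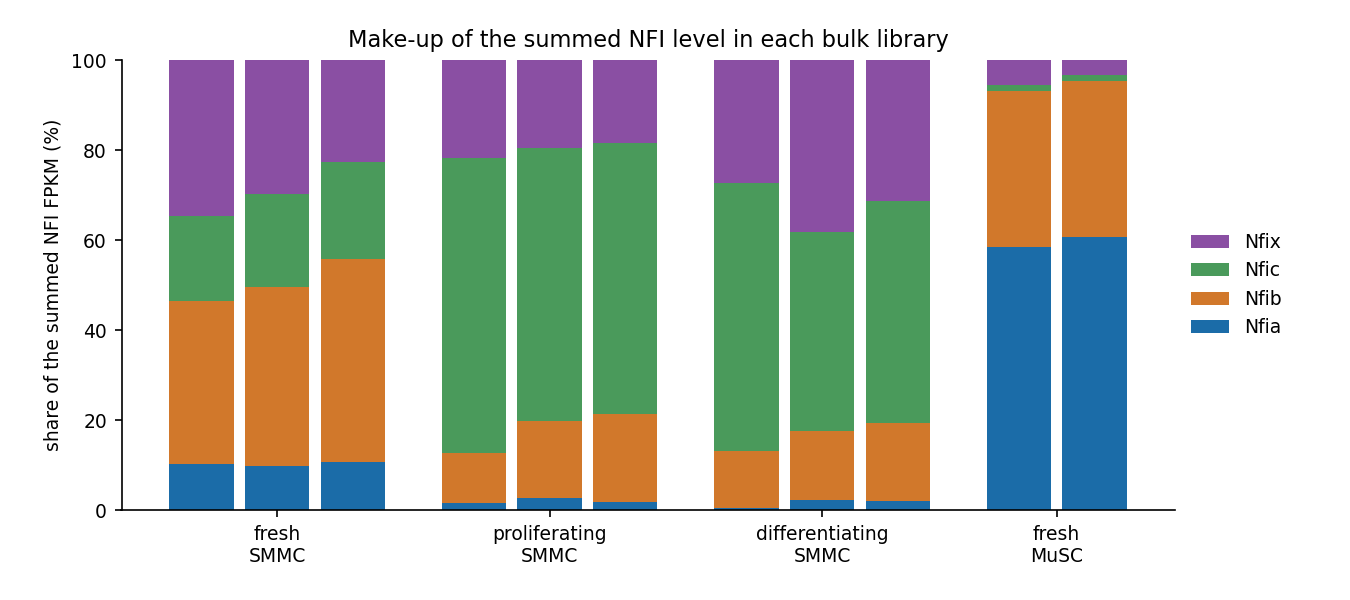
Share of the summed FPKM of the 4 NFI genes that each gene takes, 1 bar per bulk library, in fresh, proliferating and differentiating SMMC and fresh MuSC. Nfia and Nfib together fill most of each MuSC bar, where Nfic takes 1.21% to 1.22%, and Nfic takes 60.0% to 65.4% in proliferating SMMC.

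The third comparison asked what changes when cultured SMMC differentiate. Nfix alone of the 4 rose in differentiating relative to proliferating SMMC, where 20.9% of all tested genes rose and 19.6% fell. Nfix was 11.1, 12.8 and 12.1 FPKM in differentiating SMMC, against 5.45, 6.89 and 6.00 FPKM in proliferating SMMC. Every differentiating library was above every proliferating one. The mean was 1.96-fold higher, with a log2 change of 0.87 ± 0.20 (SE, limma adjusted p 0.00405). Over the 19 alternative settings the change ran from 0.73 to 0.96, with adjusted p between 0.00157 and 0.0154.

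The other members did not pass in this comparison. Nfia was 0.195, 0.708 and 0.783 FPKM in differentiating SMMC, against 0.379, 0.932 and 0.602 FPKM in proliferating SMMC (log2 change -0.08 ± 0.23, SE, limma adjusted p 0.841). Nfib was 5.14, 5.12 and 6.64 FPKM in differentiating SMMC, against 2.81, 6.01 and 6.33 FPKM in proliferating SMMC (log2 change 0.18 ± 0.26, SE, limma adjusted p 0.623). Nfic was 24.3, 14.8 and 19.0 FPKM in differentiating SMMC, against 16.3, 21.4 and 19.4 FPKM in proliferating SMMC, with a log2 change of 0.01 ± 0.22 that was -0.047 with TMM rescaling (SE, limma adjusted p 1). The groups overlapped for all 3 genes. The ratio of Nfix to Nfic, which needs no scaling between libraries, was 0.459 to 0.862 in differentiating SMMC and 0.309 to 0.334 in proliferating SMMC, without overlap between the groups.

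The rise of Nfix did not bring it back to its fresh level. In differentiating relative to fresh SMMC, Nfix still fell, with a log2 change of -1.26 ± 0.20 (SE, limma adjusted p 1.32e-04), as did Nfia at -2.93 ± 0.23 (adjusted p 4.86e-07) and Nfib at -2.71 ± 0.26 (adjusted p 2.04e-06). The background was 33.3% of tested genes lower. Nfic, at -0.16 ± 0.22, did not pass (adjusted p 0.550), and its change was 0.015 without the second differentiating library.

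Relative to MuSC, cultured SMMC had the lowest levels of the family. In proliferating SMMC, Nfia fell by 9.42, Nfib by 6.81 and Nfix by 3.54 on the log2 scale, in a comparison in which 25.7% of all tested genes fell, and only 1 gene had a more negative change than Nfia (limma adjusted p 2.95e-10 for Nfia, 2.96e-09 for Nfib and 4.39e-08 for Nfix). In differentiating SMMC, Nfia fell by 9.50, Nfib by 6.63 and Nfix by 2.67 relative to MuSC, where 25.5% of all tested genes fell (limma adjusted p 1.76e-10 for Nfia, 2.75e-09 for Nfib and 4.18e-07 for Nfix). The mean FPKM of Nfia was 1784-fold lower in proliferating and 2025-fold lower in differentiating SMMC than in MuSC. Nfic, at -0.25 in both, did not pass (adjusted p 0.391 in proliferating and 0.392 in differentiating SMMC). It did pass under other scalings, at -0.93 and -0.98 with TMM rescaling (adjusted p 0.00796 for proliferating and 0.00583 for differentiating SMMC) and at -0.76 in both with quantile normalization (adjusted p 0.0190 for proliferating and 0.0183 for differentiating SMMC). The share of called genes that were higher was 62.4% in proliferating SMMC against MuSC and 49.3% with TMM rescaling, and 64.1% in differentiating SMMC against MuSC, 50.1% with TMM rescaling and 52.5% with quantile normalization.

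**Figure D3:**
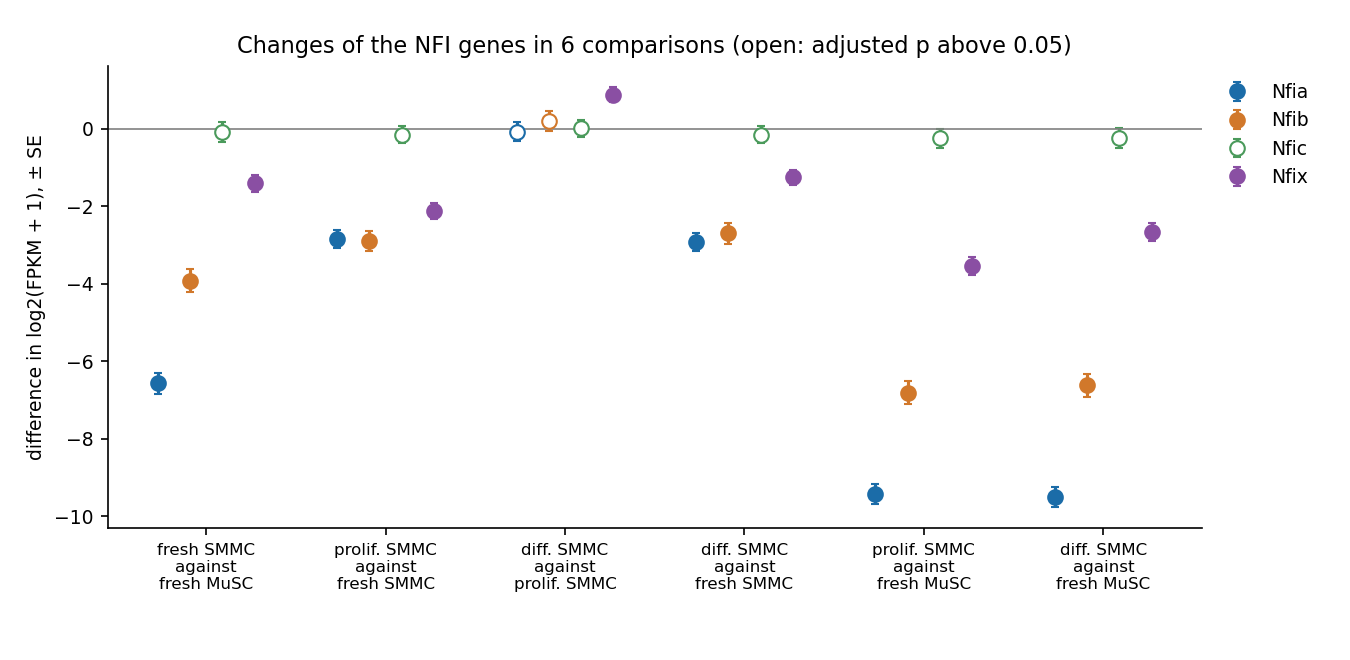
Difference in log2(FPKM + 1) with its SE for each NFI gene in 6 comparisons of bulk groups, filled where the limma adjusted p is below 0.05 and open where it is not. Nfia, Nfib and Nfix are below 0 in 5 comparisons, Nfix alone is filled above 0 between differentiating and proliferating SMMC, and Nfic is open in all 6.

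The order of the levels was therefore the same for Nfia and Nfib, with MuSC highest, then fresh SMMC, then both cultured groups, which did not differ beyond their spread. For Nfix all 4 groups stood apart, from MuSC over fresh and differentiating to proliferating SMMC. For Nfic no pair of groups passed the test with the deposited scaling. The summed FPKM of the family was 105 ± 8.69 for fresh SMMC (SD, n = 3). It was 30.9 ± 5.29 for SMMC in proliferation and 37.6 ± 3.80 for SMMC in differentiation (SD, n = 3 each), and 1905 ± 496 for MuSC (SD, n = 2).

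Genes with the bulk pattern most like that of each member were ranked by Pearson's r of log2(FPKM + 1) over the 11 libraries. The libraries form 4 groups, so r mostly reflects the differences between groups and is given without a test. For Nfia they were Sdc4, Braf, Spin1, Rbm26 and Spry2 (r 0.995 to 0.997). Sdc4, a cell-surface proteoglycan, averaged 483, 94.7 and 104 FPKM in fresh, proliferating and differentiating SMMC and 31275 FPKM in MuSC. Spry2, an inhibitor of receptor tyrosine kinase signalling, averaged 10.6, 0.821 and 0.664 FPKM in fresh, proliferating and differentiating SMMC and 2183 FPKM in MuSC. For Nfib they were Mgea5, Fbxo11, Tsc22d2, Kdm6b and Zbtb11 (r 0.996 to 0.998), and for Nfix they were Kdm7a, Ell, Stk40, Cdc42bpa and Ahnak (r 0.979 to 0.990). Kdm6b and Kdm7a encode histone demethylases. For Nfic the closest genes, Mecom, C2cd5, Herc4, Pcdhb4 and Slc35e1, reached an r of 0.731 to 0.758 only.

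Genes that earlier work places downstream or upstream of NFI factors were grouped in 4 lists, by factor and tissue. Of the 10 genes linked to Nfix in muscle, 7 rose and 2 fell in fresh SMMC relative to MuSC (median log2 change 1.37, against 0.45 over all genes tested, of which 41.7% rose). Junb, an AP-1 factor reported to act upstream of Nfix in fetal muscle, rose by 4.88 and ranged from 705 to 1218 FPKM in fresh SMMC, against 30.8 to 31.8 FPKM in MuSC (limma adjusted p 5.12e-07). Nfatc4, a calcineurin-dependent factor, rose by 2.86 (adjusted p 2.08e-05) and Eno3, the muscle enolase that Nfix activates in fetal muscle, by 1.68 (adjusted p 4.66e-05). Pax7, the satellite cell factor, fell by 3.32 (adjusted p 1.13e-04). The 12 genes of the dissociation response list, Junb among them, summed to 9053 to 15747 FPKM in fresh SMMC and 1069 to 1571 FPKM in MuSC, and the part of this in the level of Junb was not tested.

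In proliferating relative to fresh SMMC, 1 of the 10 rose and 5 fell, while 33.1% of all tested genes rose and 35.4% fell. The median log2 change of the 10 was -0.77, against -0.06 over all genes tested. Eno3 rose by 6.28 and ranged from 744 to 974 FPKM in proliferating SMMC, against 7.34 to 11.3 FPKM in fresh SMMC (limma adjusted p 5.53e-10), while Nfix itself fell. Junb fell by 3.30 (adjusted p 3.18e-06). Nfatc4 had a log2 change of -2.95 (adjusted p 4.23e-06) and Sox6, a repressor of slow fibre genes, one of -2.43 (adjusted p 1.73e-05).

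In differentiating relative to proliferating SMMC, where Nfix rose, 6 of the 10 rose and none fell. The median log2 change of the 10 was 1.12, against 0.00 over all genes tested, of which 20.9% rose and 19.6% fell. The list holds genes placed upstream as well as downstream of Nfix and was not split into activated and repressed ones. Its count therefore has no single direction that could be set beside the rise of Nfix. Ckm, the muscle creatine kinase and a fetal target of Nfix, ranged from 386 to 770 FPKM in differentiating SMMC, against 1.33 to 6.92 FPKM in proliferating SMMC, with a log2 change of 6.86 (limma adjusted p 3.25e-07). Prkcq, the protein kinase C theta of muscle, rose by 3.59 (adjusted p 1.11e-06). Sox6 rose by 2.04 (adjusted p 2.28e-04), and so did Myh7, the slow myosin heavy chain, by 2.53 (adjusted p 3.22e-04). Myh7 ranged from 2.69 to 12.9 FPKM in differentiating SMMC and from 0.107 to 0.941 FPKM in proliferating SMMC. In differentiating relative to proliferating SMMC, all 7 skeletal muscle fibre markers rose as well, against 20.9% of all tested genes, and Ckm is in both lists.

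Of the 8 genes linked to Nfia in glia, 6 were tested. In fresh SMMC relative to MuSC, 2 rose and 2 fell, while 41.7% of all tested genes rose and 18% fell. The median log2 change of the 6 was -0.02, against 0.45 over all genes tested. Fabp7, a glial fatty acid binding protein, rose by 3.93 (limma adjusted p 3.35e-06) and Gfap, an intermediate filament protein of glia, by 2.04 (adjusted p 5.06e-06), beside the Schwann cell markers given above. Sox9, which induces Nfia in the spinal cord, fell by 4.18 and averaged 35.8 ± 10.9 FPKM in fresh SMMC (SD, n = 3), against 493 and 843 FPKM in MuSC (adjusted p 1.64e-07). Ezh2, a histone methyltransferase, fell by 1.06 (adjusted p 0.00137). In proliferating relative to fresh SMMC, Ezh2 rose by 1.75 (adjusted p 7.95e-06), Notch1 fell by 1.96 (adjusted p 8.87e-06) and Zcchc24 fell by 2.37 (adjusted p 1.88e-05), and Gfap fell (adjusted p 4.75e-07) and was listed at 0 in all proliferating libraries. In differentiating relative to proliferating SMMC, Zcchc24 rose by 1.63 (adjusted p 0.00101), Ezh2 fell by 2.48 (adjusted p 2.52e-06) and Fabp7 fell by 3.49 (adjusted p 1.02e-05).

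Of the 7 genes linked to NFI factors in fat, 5 were tested, and 3 rose and none fell in fresh SMMC relative to MuSC (median log2 change 1.40, against 0.45 over all genes tested). Since 41.7% of all tested genes rose, this count is near the background. Fabp4, a fatty acid binding protein of adipocytes and endothelium, ranged from 103 to 147 FPKM in fresh SMMC, against 2.08 to 3.22 FPKM in MuSC (log2 change 5.06, limma adjusted p 4.46e-08). Pparg, the main regulator of adipogenesis, rose by 1.67 (adjusted p 7.89e-04), and Ppargc1a, a coactivator of mitochondrial genes, by 1.40 (adjusted p 0.00354), which did not pass with quantile normalization. In proliferating relative to fresh SMMC none of the 5 rose and 2 fell, while 33.1% of all tested genes rose and 35.4% fell. The number that fell is near the background. Fabp4 fell by 6.53 (adjusted p 2.03e-09) and Cebpa, a factor of adipocyte differentiation, by 1.04 (adjusted p 0.0109, and 0.230 with quantile normalization). In differentiating relative to proliferating SMMC, Cidea, a lipid droplet protein of brown fat, rose by 1.88 (adjusted p 7.88e-06), Ppargc1a rose by 1.20 (adjusted p 0.00784) and Pparg fell by 1.16 (adjusted p 0.00709).

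Of the 5 genes linked to Nfic in bone and tooth, 4 were tested. In fresh SMMC relative to MuSC, Klf4, a zinc finger factor, was the only one to pass, with a log2 change of -1.11 (limma adjusted p 0.0221). That call was lost with a pseudocount of 0.1 FPKM (adjusted p 0.0793) and without a filter on low values (0.0579). Leaving out the second (0.0502) or the third (0.0557) fresh SMMC library lost it too. The log2 change of Klf4 was -0.80 without the second MuSC library. In proliferating relative to fresh SMMC, 3 rose and 1 fell while Nfic did not pass. Over all tested genes, 33.1% rose and 35.4% fell. Sp7, the osteoblast factor osterix, ranged from 32.2 to 49.2 FPKM in proliferating SMMC and from 0.0811 to 0.789 FPKM in fresh SMMC (log2 change 4.96, adjusted p 8.14e-09). Runx2, an earlier osteoblast factor, rose by 1.75 (adjusted p 2.61e-04), Dmp1, a dentin matrix protein, rose by 0.93 (adjusted p 0.00171) and Klf4 fell by 4.88 (adjusted p 1.15e-07). In differentiating relative to proliferating SMMC, Sp7 fell by 5.30 (adjusted p 4.36e-08) and Runx2 by 2.05 (adjusted p 2.29e-04). Klf4 rose by 1.10 (adjusted p 0.0196). That call was lost in a fit of only these groups (adjusted p 0.0508), without a filter on low values (0.0583) and with quantile normalization (0.0636). It was also lost without the second differentiating library (0.0797), and without the second (0.0900) or the third (0.0580) proliferating library.

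The single-cell libraries give the levels of the family by cell type. The first held 6144 cells with 19353328 UMIs (unique molecular identifiers, each a counted transcript) and the second 6297 cells with 15507938 UMIs, with medians of 2516 and 2027 UMIs per cell. The libraries had 53 cell barcodes in common. Nfia had 2263 UMIs in library 1 and 1694 in library 2, Nfib 3471 and 1856, Nfic 1259 and 673, and Nfix 1211 and 1128. Clustering named 25 of 27 clusters from marker lists, which gave 13 classes with at least 20 cells in each library, and none of the 4 members was among the 2000 genes used to cluster. Since each library is 1 sample, levels are given per library in CPM, counts of a gene scaled to the total UMIs of its class, with exact Poisson 95% intervals, which cover counting error only, and with no test. UMIs from 3' ends are not scaled by length, and levels of different genes rest on how well each 3' end is captured.

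All 4 genes were found in mesenchymal, muscle, vascular and glial classes. Nfia and Nfib were lower in every blood class than in any of these. Blood classes reached 11.2 CPM of Nfix in library 1, above the lowest non-blood class at 7.25. For Nfic they reached 41.1 CPM in library 2, above the lowest non-blood class at 31.1. Nfia reached 117 to 298 CPM in library 1 and 95.8 to 220 in library 2 over the 8 non-blood classes. In B cell-like cells Nfia was at 2.01 and 8.50 CPM, Nfib at 3.77 and 5.31, Nfic at 9.55 and 11.7 and Nfix at 1.76 and 2.66. The part of free RNA in these levels was not tested. In natural killer-like cells only Nfic had any UMI, with 1 in library 1 and 3 in library 2, where the floor of 3 counts corresponds to 40.5 and 41.1 CPM. Macrophage-like cells stood between, with Nfic at 58.1 and 19.3 and Nfia at 44.7 and 12.8 CPM.

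Muscle stem cell-like cells were led by Nfia, at 233 CPM (208 to 260) in library 1 and 136 (118 to 155) in library 2. Nfib followed at 216 (192 to 243) and 101 CPM, and its interval overlapped that of Nfia in library 1. Nfic was at 63.9 and 36.2 and Nfix at 60.2 and 55.6 CPM. Nfia took 40.6% and 41.3% of the family's UMIs there.

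Tenocyte-like cells were led by Nfix, at 234 (211 to 260) and 247 (225 to 270) CPM, the highest Nfix levels of the 13 classes in both libraries. Nfia was at 209 and 183, Nfib at 220 and 128 and Nfic at 131 and 95.3 CPM. In library 1 the intervals of Nfia (187 to 234) and Nfib (198 to 245) overlapped that of Nfix. Fibro-adipogenic progenitor-like cells also held Nfix at 156 and 170 CPM, beside Nfia at 255 and 220, Nfib at 300.5 and 191 and Nfic at 129 and 80.2.

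Endothelial-like cells were led by Nfib, at 443 (413 to 474) and 233 (215 to 252) CPM, the highest Nfib levels of the 13 classes in both libraries. Their Nfix was low, at 19.2 and 22.3 CPM, and Nfia was at 117 in both. Different clusters made up the class, since 565 of 847 cells in library 1 came from a cluster led by Timp4 and 702 of 1353 cells in library 2 from one led by Cldn5 and Ifit1. In that first cluster Nfib was at 462 and 286 CPM in libraries 1 and 2, and in the other at 423 and 196. Nfib was thus lower in library 2 within each of these clusters. In an endothelial-like cluster led by Cytl1 and Gja4, Nfib was at 356 and 121 CPM and Nfia at 146 and 144. Nfib did not lead there in library 2, with 37 UMIs against 44 for Nfia. A cluster led by haemoglobin genes with all 8 endothelial markers up stayed unnamed and outside this class. Its Nfib was at 420 and 267 CPM in libraries 1 and 2.

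Pericyte-like cells had Nfia at 131 and 125 CPM, Nfib at 167 and 98.5 and Nfic at 126 and 55.0, but Nfix at 7.25 (interval up to 21.2) and 26.1 (11.9 to 49.5). Only 3 and 9 Nfix UMIs stood behind those levels, and the first rests on no more counts than a floor of 3. Vascular smooth muscle-like cells had Nfia at 160 and 118, Nfib at 199 and 96.6, Nfic at 64.9 and 31.1 and Nfix at 43.3 and 53.0 CPM. Schwann and glia-like cells, with 30 and 75 cells, had Nfib at 204 and 132, Nfic at 166 and 126, Nfia at 128 and 95.8 and Nfix at 51.1 and 41.9. Perineurial-like cells, led by Sfrp5, had Nfia at 298 and 103 CPM, with 43 and 23 UMIs.

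**Figure D4:**
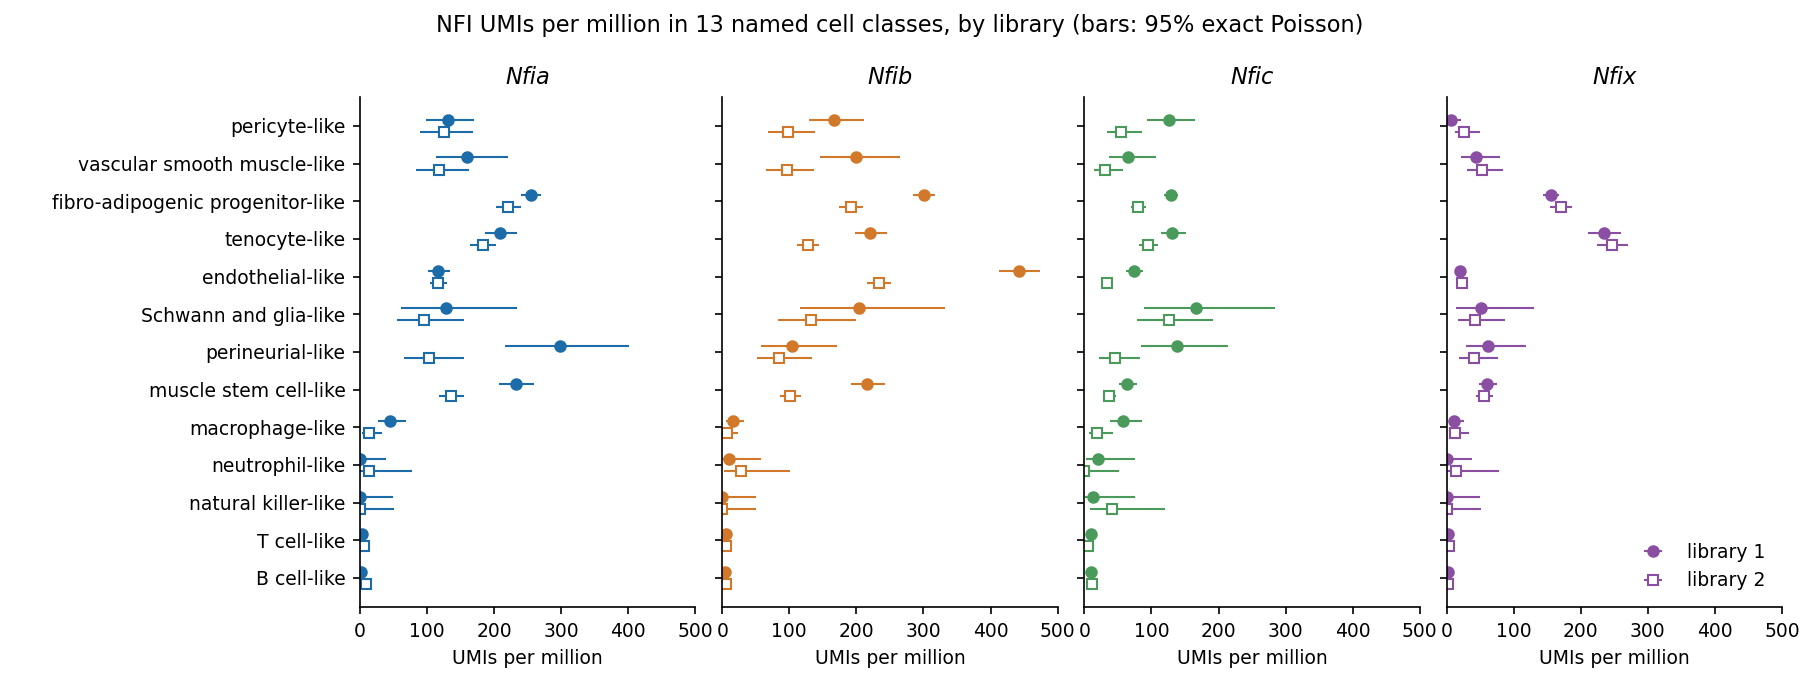
CPM of each NFI gene in 13 named cell classes, with library 1 as filled circles, library 2 as open squares and exact Poisson 95% intervals as bars. Endothelial-like cells hold the highest Nfib (443 and 233) and tenocyte-like cells the highest Nfix (234 and 247), while B cell-like and T cell-like cells reach at most 11.7 for every gene.

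A single member led in both libraries in 8 of 13 classes, Nfia in muscle stem cell-like and perineurial-like cells, Nfib in endothelial-like and Schwann and glia-like cells, Nfix in tenocyte-like cells, and Nfic in B cell-like, macrophage-like and natural killer-like cells. Several of these leads are within counting error. In natural killer-like cells the lead rests on 4 UMIs in all. In library 1, muscle stem cell-like cells had 313 Nfia and 291 Nfib UMIs, and tenocyte-like cells 357 Nfix, 336 Nfib and 319 Nfia UMIs. B cell-like cells of library 2 had 22 Nfic and 16 Nfia UMIs. In Schwann and glia-like cells Nfib had 16 and 22 UMIs and Nfic 13 and 21. In macrophage-like cells of library 2 Nfic had 6 UMIs and Nfia and Nfix 4 each, and in perineurial-like cells of library 2 Nfia had 23 and Nfib 19. B cell-like levels are low for every member, and the part of free RNA in them was not tested. The genes most like each member over the 13 classes, by Pearson's r of log2(CPM + 1), were Maged1, Mxra7, Egr1, Zfp948 and Cyr61 for Nfia (r 0.965 to 0.982) and Crip2, Ptrf, Prkcdbp, Cyr61 and Nfia itself for Nfib (r 0.955 to 0.975). For Nfic they were Carkd, Selm, Lman1, Ddah2 and Armcx3 (r up to 0.977) and for Nfix Il11ra1, Mt2, Fkbp7, Crtap and Tgfbr3 (r 0.954 to 0.981). The classes share libraries, and the contrast between blood and other cells enters every one of these values.

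Fibro-adipogenic progenitor-like cells fell into a cluster led by Smoc2 and Cxcl14 and one led by Pi16 and Dmkn. Nfib was at 369 and 221 CPM in the Smoc2 cluster and at 157 and 109 in the Pi16 cluster. Nfia was at 286 and 239 in the Smoc2 cluster and at 191 and 168 in the Pi16 cluster. Nfix showed 161 (147 to 177) and 183 (164 to 203) in the Smoc2 cluster and 143 (124 to 164) and 136 (110 to 167) in the Pi16 cluster. Its intervals thus overlapped between the clusters in both libraries. Nfic was at 147 and 80.6 in the Smoc2 cluster and at 89.3 and 79.4 in the Pi16 cluster, so its level differed in library 1 and was within counting error in library 2. Since the clusters were drawn from the same cells the differences were not tested.

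Set beside the bulk comparison, the single-cell levels of Nfia and Nfib gave smaller differences from muscle stem cells in the other non-blood classes. For Nfix and Nfic the differences were larger than in bulk in some classes and libraries and smaller in others. In bulk, mean Nfia was 0.00940 times the MuSC mean in fresh SMMC. Among single cells, Nfia relative to muscle stem cell-like cells was 0.561 (0.412 to 0.751) and 0.918 (0.645 to 1.28) in pericyte-like cells, 0.688 (0.475 to 0.969) and 0.872 (0.600 to 1.24) in vascular smooth muscle-like cells, 0.900 (0.767 to 1.05) and 1.35 (1.13 to 1.61) in tenocyte-like cells, and 0.549 (0.260 to 1.02) and 0.706 (0.396 to 1.17) in Schwann and glia-like cells. It was 1.10 (0.966 to 1.25) and 1.62 (1.38 to 1.91) in fibro-adipogenic progenitor-like cells, 0.503 (0.421 to 0.600) and 0.860 (0.720 to 1.03) in endothelial-like cells, and 1.28 (0.908 to 1.76) and 0.761 (0.472 to 1.17) in perineurial-like cells.

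Nfib relative to muscle stem cells was 0.0638 in bulk fresh SMMC, against 0.771 and 0.977 in pericyte-like cells and 1.02 and 1.27 in tenocyte-like cells. The ratio of Nfic was 0.925 in bulk fresh SMMC, against 1.97 and 1.52 in pericyte-like cells and 2.05 and 2.63 in tenocyte-like cells. Nfix relative to muscle stem cells was 0.374 in bulk fresh SMMC, against 3.89 and 4.44 in tenocyte-like cells and 0.120 and 0.469 in pericyte-like cells. The bulk ratio of Nfix thus lay between those of pericyte-like and tenocyte-like cells in library 1 and below both in library 2. The counting interval of the pericyte-like ratio was 0.0243 to 0.365 in library 1, on 3 UMIs in pericyte-like cells. In library 2 it was 0.207 to 0.933, which included the bulk ratio. The bulk ratios of Nfia and Nfib lay below both classes in both libraries. Itga7, the sorted antigen's gene, was at 293 and 185 CPM in pericyte-like, 173 and 93.4 in vascular smooth muscle-like, 25.5 and 41.9 in Schwann and glia-like, and 60.2 and 51.7 in muscle stem cell-like cells. It had 0 and 4 UMIs in tenocyte-like cells. In perineurial-like cells Itga7 was at 55.4 and 27.0 CPM, in fibro-adipogenic progenitor-like cells at 1.38 and 5.96 and in endothelial-like cells at 1.60 and 2.56. Vcam1 was at 722 and 515 CPM in muscle stem cell-like, 277 and 150 in vascular smooth muscle-like and 7.25 and 29.0 in pericyte-like cells. It was at 63.6 and 107 in tenocyte-like and 25.5 and 47.9 in Schwann and glia-like cells. FPKM and UMI levels come from different chemistries, cell isolation and scaling, so the ratios are given side by side and the difference between them was not tested.

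**Figure D5:**
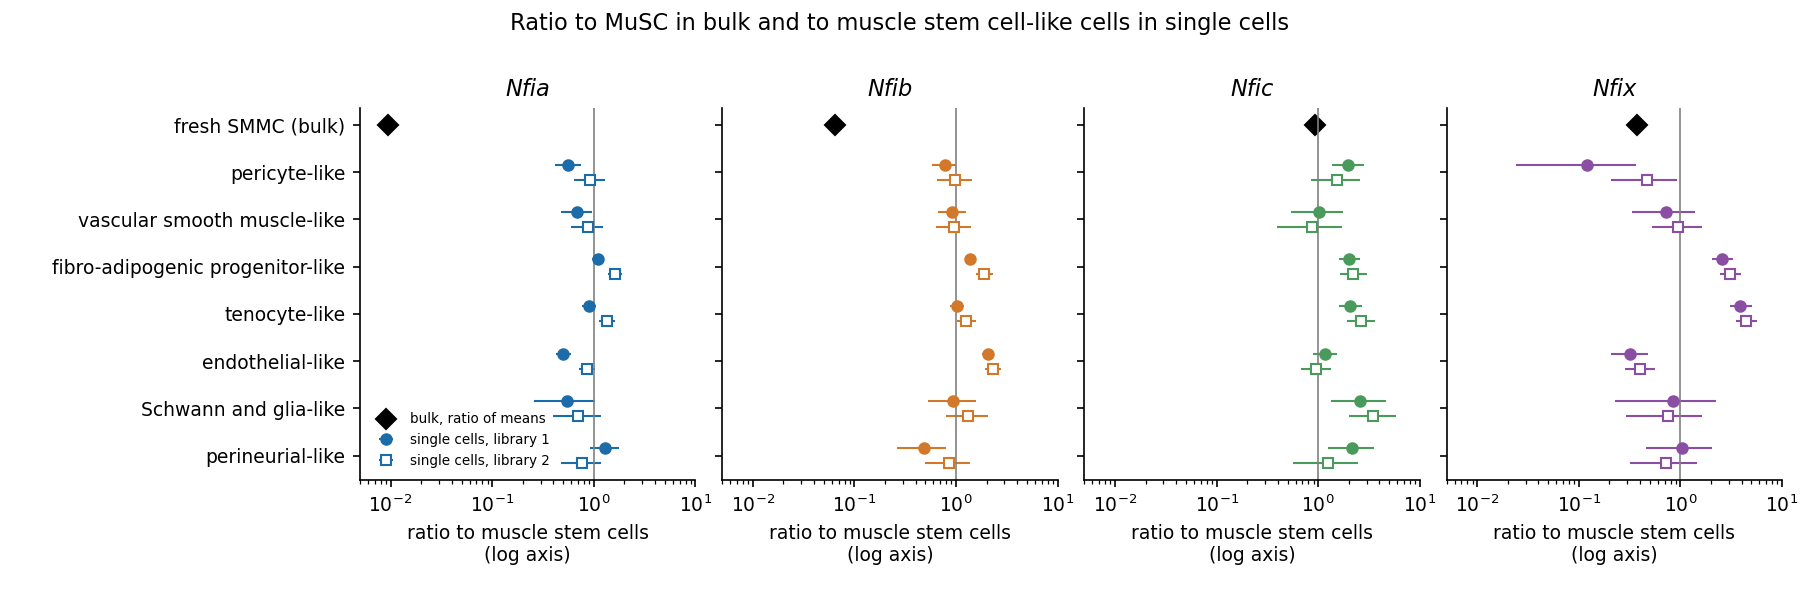
Level of each NFI gene relative to muscle stem cells on a log axis: fresh SMMC over MuSC in bulk (black diamonds, ratio of means), and 7 single-cell classes over muscle stem cell-like cells in library 1 (filled circles) and library 2 (open squares) with exact 95% intervals of counting error. The bulk diamond of Nfia lies at 0.00940 while the single-cell classes lie between 0.503 and 1.62.

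The libraries differed in the members' levels within classes. Over the 8 non-blood classes, Nfib was lower in library 2 in all 8, with a median ratio of library 2 to library 1 of 0.585 (0.466 to 0.821), and Nfic was lower in all 8 with a median of 0.523 (0.324 to 0.758). The counting interval of the ratio lay below 1 in 6 of 8 classes for each of these genes. Nfia was lower in all 8 as well, with a median of 0.808, and its interval lay below 1 in 3 classes. Nfix was lower in 3 classes only, with a median of 1.07, and its interval included 1 in all 8. The levels of Nfia, Nfib and Nfic relative to Nfix thus moved with the library, and the labels give the libraries no difference in treatment.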

How the data were processed

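The authors deposited FPKM per gene symbol for bulk RNA. The deposited single-cell tables hold whole-number UMI counts. StringTie, STAR 2.5.1b and HISAT2 2.1.0, as well as Seurat, SAMtools 1.3.1 and Cell Ranger 2.2.0, stand in the submitters' processing notes without a role, next to the build mm10. Per the labels' protocols, bulk RNA was purified from sorted cells, copied with Smart-seq2 and made into libraries with the NuGen Ovation kit. The annotation behind the FPKM is not given in the sources used here. A further 4 bulk columns fit no sample here and were left out.

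The 13233 genes that reached 1 FPKM in 2 or more of 11 libraries were tested with limma 3.58.1 in R 4.3.3 (moderated variances with a mean trend) on log2(FPKM + 1), all 4 groups in 1 fit with 7 residual degrees of freedom, in 6 comparisons. No libraries held identical values, and Spearman's rho within groups was 0.934 to 0.962 over all genes.

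A filter of 200 genes or more and 20% mitochondrial UMIs or less removed no cell. Scrublet doublets were left out. It called 52 cells in library 1 (0.846%) but 4 in library 2 (0.0635%), where it did not work, so the second library keeps its doublets. Clustering used scanpy 1.11.5 with 2000 variable genes, 30 components, 15 neighbours and Leiden resolution 1. A cluster was named from at least 3 markers at 2-fold and 50 CPM. Of 12385 cells, 1339 stayed unnamed, in a cluster led by haemoglobin genes and one with mast cell and myeloid genes. The latter was left unnamed after its genes were seen. The haemoglobin cluster, with 1073 cells, had 8 of 8 endothelial markers up, and the endothelial-like class leaves it out. Levels per class are summed UMIs over summed totals, with exact Poisson 95% intervals. The floor is 3 counts.

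The members and lists were chosen with earlier results of these data known. The named genes are the 4 members, up to 4 called genes of each NFI-linked list per comparison by smallest adjusted p, and the 5 genes most correlated with each member, without predicted genes. Sequences come from GENCODE M21 transcripts and RefSeq promoters. The fit was checked on simulated data. TMM factors came from edgeR 4.0.16. Alternatives changed the pseudocount, filter, scaling, samples, replicate block, clustering and doublets.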

Additional observations from a re-analysis of the deposited data

How the results depend on the processing

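The number of members called was 3, or 1 in differentiating against proliferating SMMC, under every alternative run except those in which Nfic passed too. It was 4 with TMM rescaling in the 3 comparisons with MuSC, and 4 with quantile normalization in proliferating and differentiating SMMC against MuSC. With a filter at 10 FPKM the number of all genes called was 5233 instead of 7906 for fresh SMMC against MuSC, 6030 instead of 9061 for proliferating against fresh SMMC and 5911 instead of 8992 for differentiating against fresh SMMC, since fewer genes were tested. Of the changes of members, 11 turned sign, all of which had not passed. In differentiating against proliferating SMMC, Nfic was -0.047 with TMM rescaling and -0.0018 with quantile normalization. Leaving out 1 library at a time gave Nfic -0.16 to 0.18, Nfia -0.19 to 0.11 and Nfib -0.12 to 0.35 in that comparison. Against MuSC, Nfic ran from -0.35 to 0.17 in fresh, -0.51 to 0.014 in proliferating and -0.51 to 0.019 in differentiating SMMC, the highest without the second MuSC library, and from -0.33 to 0.015 in differentiating against fresh SMMC. The cause was not tested. The labels do not say whether replicate numbers pair the libraries. Correlations of deviations between libraries ran from -0.128 to 0.142 over 15 same-numbered pairs and from -0.263 to 0.288 over 30 other pairs. With so few libraries per group these values cannot decide it. Fitting a replicate block gave 3 members called and 7642 genes called in fresh SMMC against MuSC. The block gave 9039 genes called in proliferating against fresh SMMC and 5293 in differentiating against proliferating SMMC. The number of single-cell classes with 1 leading member, 8, was 7 at Leiden resolution 0.5 and with called doublets kept, 8 at resolution 2 and with members kept among clustering genes, and 10 without the 5% of cells with the highest doublet scores, a setting chosen after seeing the data. At resolution 0.5 and without those 5% of cells, 44 class levels could be compared instead of 52. More than 1 of the classes was missing in each of these settings, vascular smooth muscle-like cells among them. Of 244 class levels under such settings, 19 moved by more than the spread between the libraries. That spread is wide, so large shifts can count as unmoved. Among levels of 20 CPM or more, the ratio to the main level was 0.401 to 1.03 at resolution 0.5 and 0.547 to 1.31 at resolution 2. It was 0.537 to 1.03 with called doublets kept and 0.562 to 1.24 without the 5% of cells. Depth limits the small classes, where 1 to 4 UMIs decide a level.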
